A study of Homo sapiens with 2 samples.

Results

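The SLC25 genes encode the mitochondrial carriers, the largest family of human solute carriers. Their transcripts were examined on 2 expression arrays of HCT116, a human cell line established from a colorectal carcinoma. Members were taken as all genes whose probe sets carry a single platform symbol of the form SLC25A followed by a number, without antisense genes and pseudogenes, and a gene with several probe sets is given by the one that was brightest on average (mean log2 signal of both arrays). This gave 45 members with 96 probe sets, among 19775 genes with a single-symbol probe set in all. One array held total RNA from cells given siRNAs against JMJD1A and JMJD1B, the older names of KDM3A and KDM3B, and the other held RNA from cells given a control siRNA, each harvested 2 days after transfection. The cells of both samples were grown in DMEM with 10% FBS and transfected with RNAiMAX, and no drug, transgene or mutation beyond those of the line was listed. KDM3A and KDM3B encode demethylases of lysine 9 on histone H3. Each group held 1 array, so no value below has a replicate error, a test or a p-value, and every difference is one between these 2 hybridizations. Whether fewer cells expressing a transcript or less of it per cell lies behind a lower signal cannot be told from such bulk RNA.

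Carriers of this family sit in the inner mitochondrial membrane, with a few exceptions in the outer membrane or in peroxisomes. Each is built from 3 repeats of a pair of membrane helices and moves a small charged molecule across the membrane, usually by exchange. They bring in ADP and phosphate for ATP synthesis and pass citrate, malate, aspartate, ornithine, acylcarnitines, coenzymes, nucleotides, iron and glutathione between cytosol and matrix. In proliferating carcinoma cells they are known for feeding aspartate and citrate made in mitochondria into nucleotide and lipid synthesis in the cytosol.

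The label of the treated sample was checked on the targeted genes. Both KDM3B probe sets were far dimmer on the JMJD1A/JMJD1B siRNA array, with 496 and 315 there against 3031 and 2765 on the control array, so that 16.4% and 11.4% of the control signal were left. The KDM3A probe set above the filter read 3323 on the JMJD1A/JMJD1B siRNA array and 3884 on the control array, with 85.6% of the signal left (log2 ratio -0.22, and -0.84 with the arrays level on the hybridization controls described next). The KDM3B values thus went with the label, whereas a loss of KDM3A (JMJD1A) transcript beyond the scatter between probe sets (an SD of 0.54, described below) was not seen on the deposited scale. The name of the array is used below as its label only, with no claim that both transcripts were reduced. Among fixed markers of colorectal epithelium 9 of 10 were measured. Of these, 4 (KRT19, CDH1, CLDN4 and CEACAM5) were at least 2-fold higher on the JMJD1A/JMJD1B siRNA array, where 8.91% of all measured genes were. CEACAM5 read 94.6 on the JMJD1A/JMJD1B siRNA array and 38.9 on the control array, the second value under the filter used later. It passed that filter only through the array where it was higher, so a 2-fold difference is not given for CEACAM5 against the filter. EPCAM, KRT8, KRT18, KRT19, CDH1 and CLDN4 read at least 1445 on both arrays, while VIL1, CDX2 and CEACAM5 read at most 108 on either and CDX1 lay below the filter used later. Of the markers of other cell types, those measured were 2 of 9 fibroblast, 4 of 10 leukocyte and 1 of 7 endothelial genes. Summed over every listed gene with a probe set, measured or not (9, 8 and 7 genes), the signals were 926 and 556 (fibroblast), 472 and 413 (leukocyte), and 278 and 169 (endothelium) on the JMJD1A/JMJD1B siRNA array and the control array in that order, none of those markers was listed at 0, and their part in the results was not tested. The deposited values had been scaled as a whole to one trimmed mean, yet the 18 probe sets for spiked hybridization controls all read higher on the JMJD1A/JMJD1B siRNA array, with a median log2 ratio of 0.61. With the arrays set level on those controls every log2 ratio would fall by 0.61 and the median of all measured genes would move to -0.57, against 0.04 on the deposited scale, which is used below.

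A gene counted as measured if the geometric mean of its 2 signals reached 50.4, the median over all probe sets that are not controls, and 38 of the 45 members did so. Signals are MAS5 intensities in arbitrary units, and a log2 ratio sets the JMJD1A/JMJD1B siRNA array over the control array. Of the 38 measured members, 4 were at least 2-fold higher on the JMJD1A/JMJD1B siRNA array, where 8.91% of all 12561 measured genes were, and 4 were at least 2-fold lower, where 8.53% of all measured genes were. The members' shares, 10.5% in each direction, lay near that background, and the other 30 members differed less than 2-fold. Of the changed members, 3 passed the filter only through the array where they were higher. With both arrays required to reach the filter, 2 of 35 members were at least 2-fold higher (5.71%, beside 7.95% of all genes). Under that filter 3 members were at least 2-fold lower (8.57%, beside 8.03%). The median log2 ratio of the members was -0.22, beside 0.04 for all measured genes, with 16 members above 0 and 22 below. The members' share above 0 was 42.1%, beside 52.1% of all measured genes. By the mean of measured probe sets instead of the brightest, the members' median was -0.01, so its distance from 0 depended on the probe-set rule. The ratios of the members ran between -1.92 and 1.99 with an SD of 0.77, beside 0.78 over all measured genes. With the arrays level on the hybridization controls the members' median would be -0.83, beside -0.57 for all measured genes, and 6 members would stay above 0. That level lowers every ratio by 0.61. The share of all measured genes above 0 there was not worked out, so the count of 6 does not set the members apart.

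**Figure D1:**
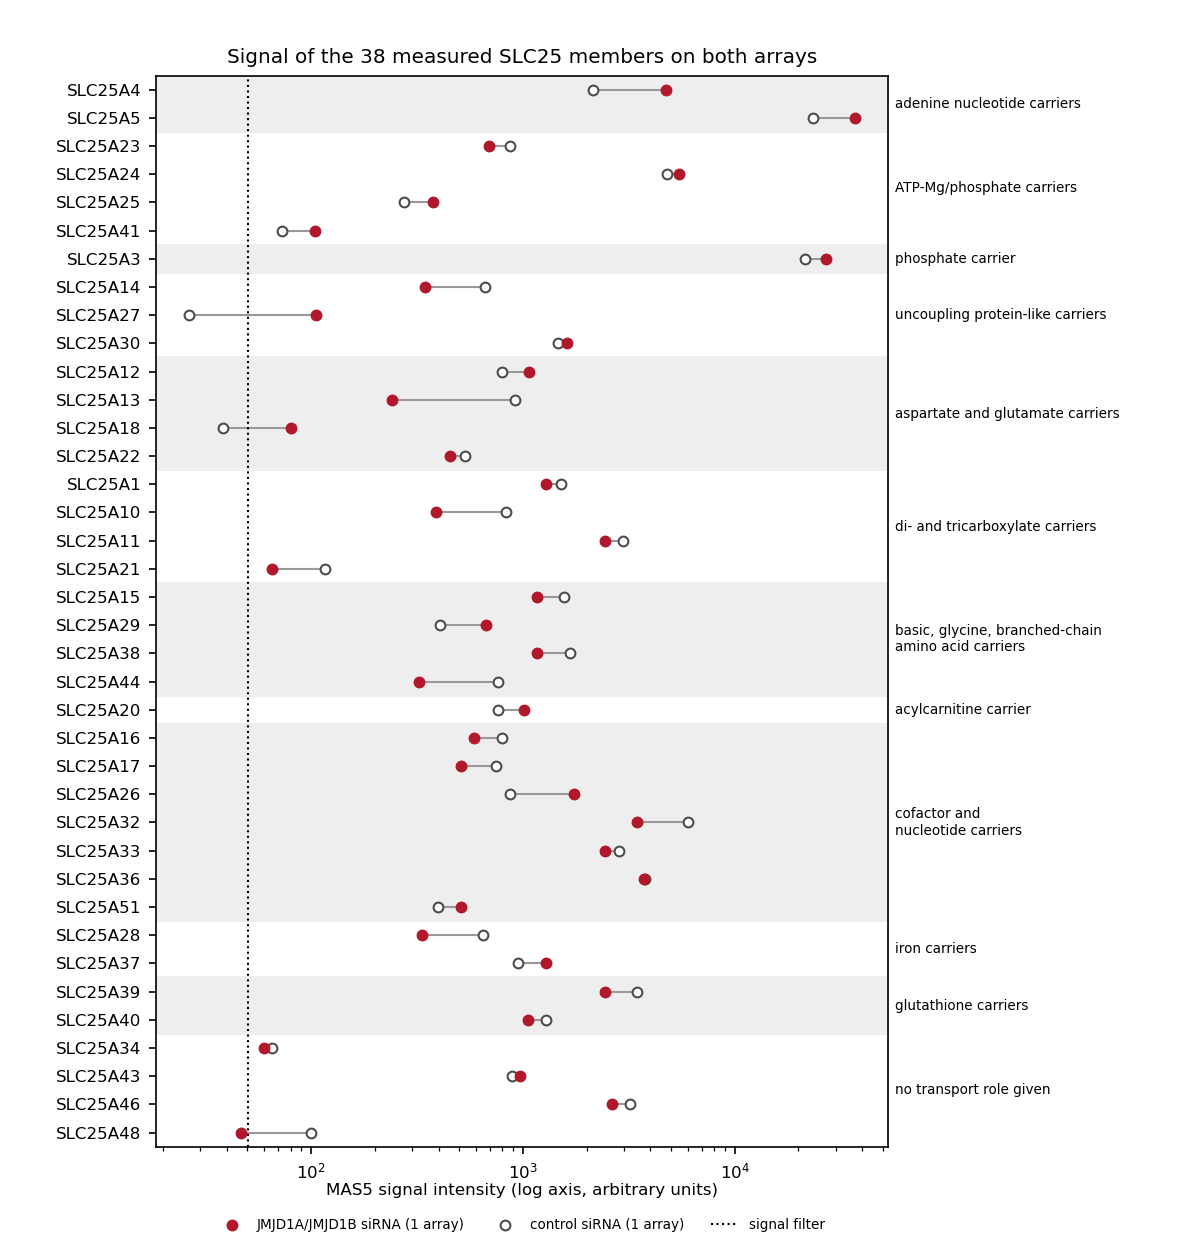
MAS5 signal intensity (log axis, arbitrary units) of the 38 measured SLC25 members on the JMJD1A/JMJD1B siRNA array (filled red) and the control array (open), 1 array each, by transport role. The widest gaps are those of SLC25A27, whose control signal of 26.6 lies left of the dotted filter at 50.4, and of SLC25A13, at 241 on the JMJD1A/JMJD1B siRNA array and 914 on the control array.

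The members at least 2-fold higher were SLC25A4, SLC25A18, SLC25A26 and SLC25A27. SLC25A4 encodes the ADP/ATP carrier typical of heart and muscle and read 4728 on the JMJD1A/JMJD1B siRNA array against 2147 on the control array (202825_at, 2.20-fold, log2 ratio 1.14). SLC25A26, the carrier that brings the methyl donor S-adenosylmethionine into the matrix, read 1739 on the JMJD1A/JMJD1B siRNA array against 866 on the control array (225862_at, 2.01-fold, log2 ratio 1.00). Both were above the filter on both arrays, each by its only measured probe set. SLC25A18, a glutamate carrier, read 80.4 on the JMJD1A/JMJD1B siRNA array and 38.3 on the control array, and with the control signal raised to the filter it was at least 1.59-fold higher. SLC25A27, an uncoupling protein-like carrier best known from brain, read 106 on the JMJD1A/JMJD1B siRNA array and 26.6 on the control array, at least 2.10-fold higher against the filter. Both dim genes passed the filter through the JMJD1A/JMJD1B siRNA array alone, so they could only be counted because they were higher there. The other 4 SLC25A27 probe sets lay below the filter. From the brightest down, their log2 ratios were -0.004 (1554161_at), 0.03 (230624_at), 1.40 (231787_at) and -0.82 (229361_at). The bound given for SLC25A27 thus rests on 1552774_a_at alone. With the arrays level on the hybridization controls all 4 genes stayed above 0, at 0.53 for SLC25A4, 0.46 for SLC25A18, 0.39 for SLC25A26 and 1.38 for SLC25A27. Against the filter, the bound of SLC25A27 would be 0.46 on that level, so a 2-fold difference is not given for any of the 4 there.

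The members at least 2-fold lower were SLC25A10, SLC25A13, SLC25A44 and SLC25A48. SLC25A44, a carrier of branched-chain amino acids, was the only 1 of the 8 changed members with a second measured probe set that also passed 2-fold. Its probe set 32091_at read 322 on the JMJD1A/JMJD1B siRNA array against 761 on the control array (2.36-fold lower, log2 ratio -1.24), and 212683_at read 179.6 against 390.4 in the same order (log2 ratio -1.12). SLC25A10, the dicarboxylate carrier that exchanges malate or succinate for phosphate, read 387 on the JMJD1A/JMJD1B siRNA array against 832 on the control array by its single probe set (218275_at, 2.15-fold lower, log2 ratio -1.10). SLC25A13 encodes citrin, an aspartate/glutamate carrier. Its brightest probe set, 203775_at, had the lowest ratio of the measured members, with 241 on the JMJD1A/JMJD1B siRNA array against 914 on the control array (3.79-fold lower, log2 ratio -1.92). The 2 dimmer citrin probe sets did not share that size, since 229061_s_at had a log2 ratio of 0.07 and 229081_at one of -0.52, and their mean with the brightest was -0.79. SLC25A48 had probe sets in opposite directions, at -1.10 by the brighter, which read 46.6 on the JMJD1A/JMJD1B siRNA array and 99.8 on the control array, and at 0.77 by the other. It passed the filter through the control array alone and was at least 1.98-fold lower against the filter.

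**Figure D2:**
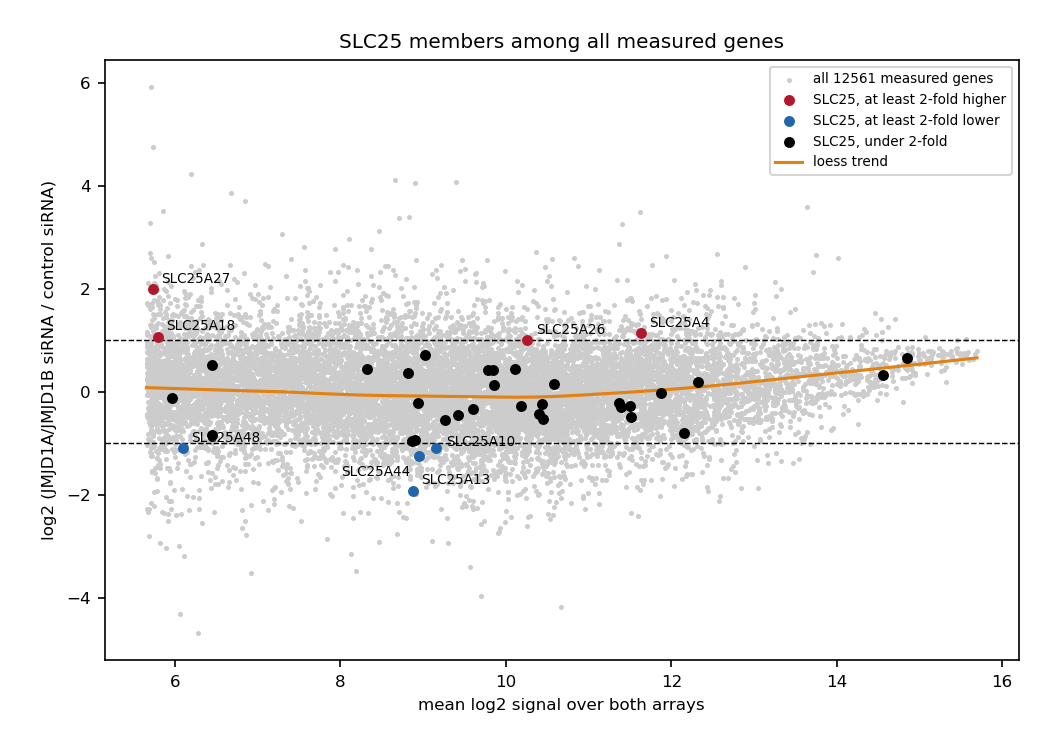
Log2 ratio (JMJD1A/JMJD1B siRNA over control siRNA) against mean log2 signal over both arrays for all 12561 measured genes (grey) and the 38 SLC25 members (coloured by whether they passed 2-fold), with the loess trend in orange and dashed lines at 2-fold. The members spread through the cloud of all genes, and SLC25A18, SLC25A27 and SLC25A48 lie at its dim end.

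How often a gene passed 2-fold varied with its signal. Of 4 equal bins of measured genes by signal, the dimmest, with geometric means up to 202, had 11.6% of its genes at least 2-fold higher and 7.86% lower by as much. In the brightest bin, above 2077, the shares were 7.90% and 4.84%. In the bins between, the higher shares were 9.49% and 6.62% and the lower ones 9.78% and 11.7%, the dimmer bin first. The dimmest bin held 6 members, 3 of them past 2-fold (SLC25A18, SLC25A27 and SLC25A48), and each of the 3 passed the filter through 1 array only. The next held 11 members, with SLC25A10, SLC25A13 and SLC25A44 lower, and the one above it 11, with SLC25A26 higher. The brightest held 10 members, of which SLC25A4 alone passed 2-fold.

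The stretches of 250 bases before the annotated start are shown for 5 of the 6 changed members whose measured probe sets all passed 2-fold. They show how far the start regions of changed members differ in composition, and with 1 lower gene among them they give no comparison of higher with lower genes. They come from RefSeq, build GRCh38.p14, all on the plus strand, and are written 5′ to 3′ in lower case with motif matches in capitals. The higher genes are SLC25A4 (chr4:185143016-185143265), SLC25A18 (chr22:17563248-17563497), SLC25A26 (chr3:66220492-66220741, the most upstream of its 3 listed starts) and SLC25A27 (chr6:46652725-46652974), and the lower one is SLC25A44 (chr1:156193854-156194103).
SLC25A4: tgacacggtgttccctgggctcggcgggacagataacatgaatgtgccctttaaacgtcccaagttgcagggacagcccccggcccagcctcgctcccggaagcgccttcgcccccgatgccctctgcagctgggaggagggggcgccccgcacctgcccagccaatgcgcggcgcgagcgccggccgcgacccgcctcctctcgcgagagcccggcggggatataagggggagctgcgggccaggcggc
SLC25A18: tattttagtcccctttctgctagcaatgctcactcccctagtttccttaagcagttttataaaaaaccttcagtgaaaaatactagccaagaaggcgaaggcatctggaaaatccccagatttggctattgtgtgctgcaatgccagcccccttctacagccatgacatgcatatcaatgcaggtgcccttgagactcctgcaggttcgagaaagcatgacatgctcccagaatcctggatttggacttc
SLC25A26: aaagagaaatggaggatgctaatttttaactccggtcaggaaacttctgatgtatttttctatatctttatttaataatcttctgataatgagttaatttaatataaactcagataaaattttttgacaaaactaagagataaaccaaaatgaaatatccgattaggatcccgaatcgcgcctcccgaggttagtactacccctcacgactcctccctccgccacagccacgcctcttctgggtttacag
SLC25A27: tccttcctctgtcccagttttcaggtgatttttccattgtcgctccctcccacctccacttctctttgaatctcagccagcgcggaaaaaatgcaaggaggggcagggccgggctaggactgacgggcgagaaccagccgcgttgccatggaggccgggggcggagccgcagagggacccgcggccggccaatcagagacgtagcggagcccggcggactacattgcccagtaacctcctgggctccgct
SLC25A44: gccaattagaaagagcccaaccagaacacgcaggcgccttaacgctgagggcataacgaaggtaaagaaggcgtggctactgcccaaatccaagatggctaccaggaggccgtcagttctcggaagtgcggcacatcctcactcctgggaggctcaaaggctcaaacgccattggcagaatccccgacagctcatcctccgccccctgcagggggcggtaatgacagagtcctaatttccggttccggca
No match is capitalised in those 5 stretches for any of the motifs searched on both strands, which were CACGTG (the E-box), ACGTG (the core of the hypoxia response element, also contained in CACGTG) and the consensus palindrome of NRF-1, a regulator of genes for mitochondrial proteins. This says only that these letters are not there. Their base composition differed widely, from 37.6% G or C with 9 CpG dinucleotides for this SLC25A26 stretch and 46.0% with 2 for SLC25A18 to 71.6% with 27 for SLC25A4. The SLC25A26 stretch that holds CACGTG, before another of its starts, had 60.8% with 19. Before the most downstream start listed for SLC25A26, CACGTG occurred at positions -50 and -24, counted from -1 at the base before that start (chr3:66220944-66220963 and chr3:66220970-66220989, plus strand).
SLC25A26 at -50: cgcgttgCACGTGcagttgt
SLC25A26 at -24: tctacgtCACGTGgtcccgg
Of the 38 measured members 33 had such stretches, 42 in all, and SLC25A16, SLC25A30, SLC25A32, SLC25A37 and SLC25A41 had none. CACGTG was present in 7 of the 42 (16.7%) and in 6.34% of all 35116 stretches of this length. ACGTG was present in 12 (28.6%) and in 18.5% of all, and the NRF-1 palindrome in 0 and in 1.03% of all. The members' stretches were richer in G and C, with a median of 66.4% against 58% over all stretches, and the motif shares were not adjusted for that. The 7 members with CACGTG were SLC25A13, SLC25A26, SLC25A33, SLC25A36, SLC25A38, SLC25A46 and SLC25A51, whose log2 ratios lay on both sides of 0, between -1.92 and 1.00.

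The carriers that serve ATP synthesis directly stood above the control level by their brightest probe sets, although SLC25A3 would turn to -0.28 and SLC25A5 would come to 0.04 with the arrays level on the hybridization controls. Besides SLC25A4, SLC25A5, the ADP/ATP carrier of proliferating cells, read 36917 on the JMJD1A/JMJD1B siRNA array against 23545 on the control array (log2 ratio 0.65). Bright genes as a whole tended upward, and after loess removal of that trend SLC25A5 stood at 0.14 and SLC25A4 at 1.13, so SLC25A5 lay within the trend of genes of its signal and SLC25A4 above it. SLC25A31, the ADP/ATP carrier of testis, was at 2.02 on the JMJD1A/JMJD1B siRNA array and 0.933 on the control array, far below the filter. SLC25A3, the phosphate carrier, read 27006 on the JMJD1A/JMJD1B siRNA array and 21512 on the control array by its brightest probe set (log2 ratio 0.33, and -0.13 after loess). A much dimmer SLC25A3 probe set, 228971_at, read 333.6 on the JMJD1A/JMJD1B siRNA array against 1035 on the control array (log2 ratio -1.63), so the probe sets of this gene pointed in opposite directions.

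The ATP-Mg/phosphate carriers, which adjust the adenine nucleotide pool of the matrix and of which SLC25A23, SLC25A24 and SLC25A25 respond to calcium, had 4 of 4 members measured and none past 2-fold. SLC25A24 read 5485 on the JMJD1A/JMJD1B siRNA array and 4789.8 on the control array (log2 ratio 0.20). SLC25A25 read 374 on the JMJD1A/JMJD1B siRNA array and 275 on the control array, a log2 ratio of 0.45. SLC25A23 was at -0.34 by its brighter probe set and 1.00 by the dimmer one. SLC25A41, its neighbour on chromosome 19, overlaps the span of SLC25A23 in the RefSeq annotation and read 104 on the JMJD1A/JMJD1B siRNA array and 73.1 on the control array (log2 ratio 0.51). The 3 ratios above 0 in this group were under 0.61 and would become negative with the arrays level on the hybridization controls.

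Among the other uncoupling protein-like carriers, SLC25A14 was just under 2-fold lower and SLC25A30 was nearly level. SLC25A14 read 345 on the JMJD1A/JMJD1B siRNA array against 662 on the control array (log2 ratio -0.94), with its second probe set at -0.53. SLC25A30 read 1613 on the JMJD1A/JMJD1B siRNA array and 1458 on the control array (log2 ratio 0.15), with a dimmer probe set at 1.15. The genes of the uncoupling proteins proper carry other symbols. UCP2 read 342 on the JMJD1A/JMJD1B siRNA array and 568 on the control array (log2 ratio -0.73) by its brightest probe set and was at 0.43 by another, and UCP1 and UCP3 lay below the filter.

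The carriers of the malate-aspartate shuttle, which passes the reducing power of NADH into mitochondria, did not move together. SLC25A12 (aralar), the other aspartate/glutamate carrier, read 1070.4 on the JMJD1A/JMJD1B siRNA array and 796 on the control array (log2 ratio 0.43), with its other probe set at 0.29. Its paralog SLC25A13 was at -1.92 by its brightest probe set, and no SLC25A13 probe set, the highest being 0.07, reached the lower of the SLC25A12 values. The difference between both paralogs was 2.35 by the brightest probe sets and 1.15 by the means of all measured ones. SLC25A11, the malate/2-oxoglutarate carrier that completes the shuttle, read 2437 on the JMJD1A/JMJD1B siRNA array and 2984 on the control array (log2 ratio -0.29), with a second probe set at -0.43. Of the 4 shuttle enzymes GOT1, GOT2, MDH1 and MDH2, none differed 2-fold, and MDH1 had the largest ratio at 0.68. The glutamate carrier SLC25A22 read 454 on the JMJD1A/JMJD1B siRNA array and 531 on the control array (log2 ratio -0.23).

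All 4 di- and tricarboxylate carriers had a ratio below 0 on the deposited scale, where 52.1% of all measured genes lay above 0. Their median log2 ratio was -0.57, beside 0.04 for all measured genes. The signs were kept under each other scaling. Of these, the level of the hybridization controls lowers every ratio by 0.61 and so could not turn a negative one positive. SLC25A10 alone was at least 2-fold lower. SLC25A21, the oxodicarboxylate carrier, was dim, at 65.1 on the JMJD1A/JMJD1B siRNA array and 117 on the control array (log2 ratio -0.84). SLC25A1, the citrate carrier that exports acetyl units for lipid synthesis, read 1282 on the JMJD1A/JMJD1B siRNA array and 1506 on the control array (log2 ratio -0.23). That difference was smaller than the SD of 0.54 found for single probe sets from the 6192 genes that had at least 2 measured. SLC25A11, at -0.29, also lay within that SD. Among the enzymes around citrate, ACLY, which cleaves exported citrate, was 2.498-fold lower, at 5313 on the JMJD1A/JMJD1B siRNA array against 13269 on the control array, while citrate synthase (CS) was at -0.43 and IDH2 at 0.78.

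The amino acid carriers other than those of aspartate and glutamate had 3 of 4 measured members below 0. Besides SLC25A44, SLC25A38, which brings glycine in for heme synthesis, read 1166 on the JMJD1A/JMJD1B siRNA array and 1676 on the control array (log2 ratio -0.52). SLC25A15, the ornithine carrier, read 1164 on the JMJD1A/JMJD1B siRNA array and 1571 on the control array (log2 ratio -0.43), with its other probe set at -0.47. SLC25A29, a carrier of basic amino acids, was higher, with 667 on the JMJD1A/JMJD1B siRNA array against 405 on the control array (log2 ratio 0.72) and a second probe set at 0.48. SLC25A2, the other ornithine carrier, lay below the filter. Of 6 measured enzymes of ornithine and proline metabolism, PYCR3, a pyrroline-5-carboxylate reductase, was the only one past 2-fold by its brightest probe set. PYCR3 read 64.3 on the JMJD1A/JMJD1B siRNA array against 279 on the control array (4.35-fold lower). CPS1 was at 0.80 by its brightest probe set and at 1.17 by its other. SLC25A20, the carnitine/acylcarnitine carrier of fatty acid oxidation, read 1016 on the JMJD1A/JMJD1B siRNA array and 760.3 on the control array (log2 ratio 0.42), and none of 4 measured carnitine shuttle enzymes differed 2-fold, CRAT having the largest ratio at -0.52.

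The cofactor and nucleotide carriers had 7 measured members, of which SLC25A26 was past 2-fold and 5 lay below 0. SLC25A32, the folate carrier, read 3469 on the JMJD1A/JMJD1B siRNA array against 6023 on the control array (log2 ratio -0.80), so 57.6% of the control signal was left. SLC25A17, a carrier of the peroxisomal membrane, was at -0.56 and -1.01 by its 2 probe sets. SLC25A33 and SLC25A36, which carry pyrimidine nucleotides, were at -0.22 and -0.02 by their brightest probe sets, and the signal of SLC25A36 was nearly level, with 3723 on the JMJD1A/JMJD1B siRNA array and 3783 on the control array. SLC25A51, the NAD carrier, was at 0.37 and 0.40 by its 2 probe sets. The 4 probe sets of SLC25A16, a gene linked to coenzyme A import, ran between -0.44 and 0.93 and thus gave no single direction. Of 8 measured genes of coenzyme A synthesis, PANK3, a pantothenate kinase, was 2.12-fold lower (log2 ratio -1.08) by the brighter of its probe sets. Its other probe set was at 0.35. No other gene of this list passed 2-fold by its brightest probe set, although the 6 measured probe sets of PANK2 ran between -0.06 and 1.55. Of 3 measured mitochondrial folate enzymes none passed 2-fold, SHMT2 having the largest ratio by the brightest probe set at -0.44.

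**Figure D3:**
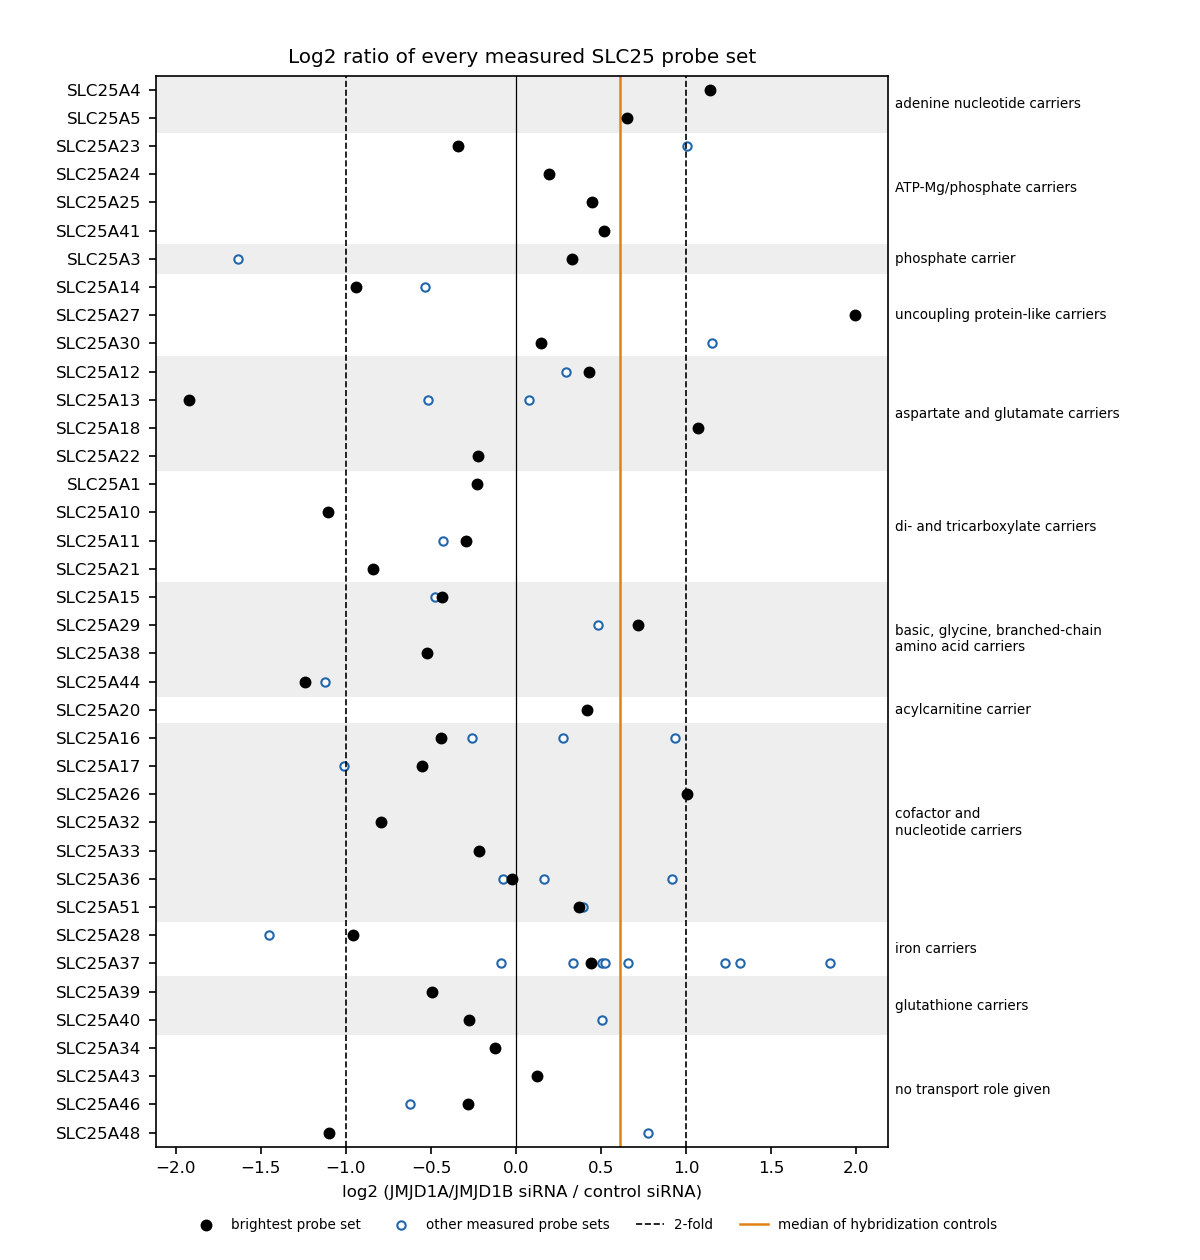
Log2 ratio (JMJD1A/JMJD1B siRNA over control siRNA) of all 69 measured SLC25 probe sets, 1 row per member by transport role, with the brightest probe set of each gene in black, the others in open blue, dashed lines at 2-fold and the median of the hybridization controls (0.61) in orange. On the deposited scale SLC25A37 has 8 of 9 probe sets above 0 and SLC25A28 both below 0, while SLC25A3, SLC25A13, SLC25A16, SLC25A23 and SLC25A48 have points on both sides.

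The mitoferrins, which import iron for heme and iron-sulfur clusters, stood on opposite sides of 0 on the deposited scale, while both would be below 0 by their brightest probe sets with the arrays level on the hybridization controls. SLC25A28 (mitoferrin-2) read 334 on the JMJD1A/JMJD1B siRNA array against 649 on the control array by its brightest probe set (log2 ratio -0.96, just under 2-fold), and 197 against 539 in the same order by the next (log2 ratio -1.45). SLC25A37 (mitoferrin-1) read 1293 on the JMJD1A/JMJD1B siRNA array and 951 on the control array by its brightest probe set (log2 ratio 0.44). Of its 9 measured probe sets 8 were above 0 and 3 were at least 2-fold higher, within a range of -0.09 to 1.85. The probe sets of one gene share the array pair and some may overlap in sequence, so they are not replicates. The range of SLC25A37 did not overlap that of SLC25A28, and the difference between the brightest probe sets was 1.40. Level on the hybridization controls, SLC25A37 would be at -0.17 and SLC25A28 at -1.57, with the same difference between them. Of 7 measured genes of heme and iron-sulfur cluster synthesis none differed 2-fold by its brightest probe set. PPOX had the largest such ratio at 0.81, and its other measured probe set was at 1.23.

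The glutathione carriers SLC25A39 and SLC25A40 were both below 0 by their brightest probe sets. SLC25A39 read 2451 on the JMJD1A/JMJD1B siRNA array and 3459 on the control array (log2 ratio -0.50). SLC25A40 read 1056 on the JMJD1A/JMJD1B siRNA array and 1281 on the control array (log2 ratio -0.28), but its second probe set was at 0.51. Of the genes that make glutathione, GCLM, the modifier subunit of glutamate-cysteine ligase, was 3.27-fold lower, at 1065 on the JMJD1A/JMJD1B siRNA array against 3488 on the control array. The catalytic subunit GCLC was at -0.07 and GSS at 0.18.

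The remaining measured members have no transport role given here. SLC25A46, which sits in the outer membrane and bears on mitochondrial shape, read 2633 on the JMJD1A/JMJD1B siRNA array and 3206 on the control array (log2 ratio -0.28), with its other probe set at -0.62. SLC25A43, next to SLC25A5 on the X chromosome, read 968 on the JMJD1A/JMJD1B siRNA array and 889.8 on the control array (log2 ratio 0.12). SLC25A34 was at -0.12 close to the filter.

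Of the 7 members below the filter, 4 (SLC25A2, SLC25A31, SLC25A47 and SLC25A53) were under 50.4 on both arrays. The other 3 crossed it on 1 array. SLC25A42, a carrier of coenzyme A, read 80.4 on the JMJD1A/JMJD1B siRNA array and 22.1 on the control array, at least 1.60-fold higher against the filter, and its other 3 probe sets, all dimmer, also had ratios above 0. SLC25A35 read 10.9 on the JMJD1A/JMJD1B siRNA array and 82.4 on the control array, at least 1.64-fold lower against the filter, with its second probe set at 15.7 and 49.7 in the same order. SLC25A45 read 43.1 on the JMJD1A/JMJD1B siRNA array and 53.6 on the control array. All 3 rest on signals near or under the filter. SLC25A6 and SLC25A52 were not analysed here.

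Agreement between probe sets limits what can be said of single members. Of the 19 members with 2 or more measured probe sets, 4 had all of them above 0 (SLC25A12, SLC25A29, SLC25A30 and SLC25A51), 7 had all below 0 (SLC25A11, SLC25A14, SLC25A15, SLC25A17, SLC25A28, SLC25A44 and SLC25A46) and 8 had them on both sides. Over these 19 a single probe set scattered with an SD of 0.64 in its log2 ratio, beside 0.54 over all such genes. Set against the SD over all genes, 23 of the 38 members had a log2 ratio within 0.54 of 0. The share of all measured genes in that range was not worked out, so this count does not set the members apart. With the arrays level on the hybridization controls, each of the 4 genes named as all above 0 would have a value below 0.

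Of 18 paralog pairs listed, 12 had both genes measured, and 4 of these were at least 1 apart on the log2 scale. Besides the aspartate/glutamate carriers and the mitoferrins these were SLC25A14 and SLC25A30 (-0.94 and 0.15) and SLC25A18 and SLC25A22 (1.07 and -0.23). With the dim control signal of SLC25A18 raised to the filter, this last pair was at least 0.90 apart and no longer 1, which leaves 3 pairs. A factor applied to a whole array cancels in such a difference, so those 3 are the same whether the arrays are level on the deposited scale or on the controls, and after loess they lay at 2.37, 1.43 and 1.09 in size, in the order named. In contrast SLC25A33 and SLC25A36 were 0.20 apart and SLC25A39 and SLC25A40 0.22 apart by their brightest probe sets, less than the probe-set SD of 0.54. By the means of all measured probe sets these pairs were 0.46 and 0.61 apart, the second above that SD. These are descriptions of 1 array per group. The share of pairs at least 1 apart was not worked out for other genes, whose single log2 ratios had an SD of 0.78. The count therefore does not show that paralogs differ more than other pairs of genes.

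The machinery that inserts carriers into the inner membrane and the other channels of the mitochondrial envelope gave few 2-fold differences. Of 7 measured genes of carrier import, TIMM10B was 3.44-fold lower, at 215 on the JMJD1A/JMJD1B siRNA array against 739 on the control array. The others, including TIMM22, TIMM9, TIMM10 and TOMM70, were under 2-fold by their brightest probe sets, while TIMM22 was at -1.13 by another. Of 5 sideroflexins, inner membrane proteins of which SFXN1 carries serine, SFXN2 was 2.19-fold lower. None of the 3 VDAC genes, of the pyruvate carrier genes MPC1 and MPC2, or of 4 measured genes of the calcium uniporter passed 2-fold, the largest ratios being 0.48 for VDAC2, 0.73 for MPC2 and 0.71 for MCUB. GLUD1, the glutamate dehydrogenase and the only measured gene of the glutamine and glutamate list, was at 0.39. Among family members under other symbols MTCH1 was at 0.34 and MTCH2 at 0.03. Over all these transport and enzyme lists together, 63 genes were measured, with a median log2 ratio of -0.09. By their brightest probe sets, 0 were at least 2-fold higher (8.91% of all measured genes were) and 6 at least 2-fold lower (8.53% of all). The 6 were TIMM10B, SFXN2, ACLY, PYCR3, PANK3 and GCLM. By other measured probe sets PANK2 reached 1.55, PPOX 1.23 and CPS1 1.17, and TIMM22 reached -1.13, so the split depends on the probe set taken.

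**Figure D4:**
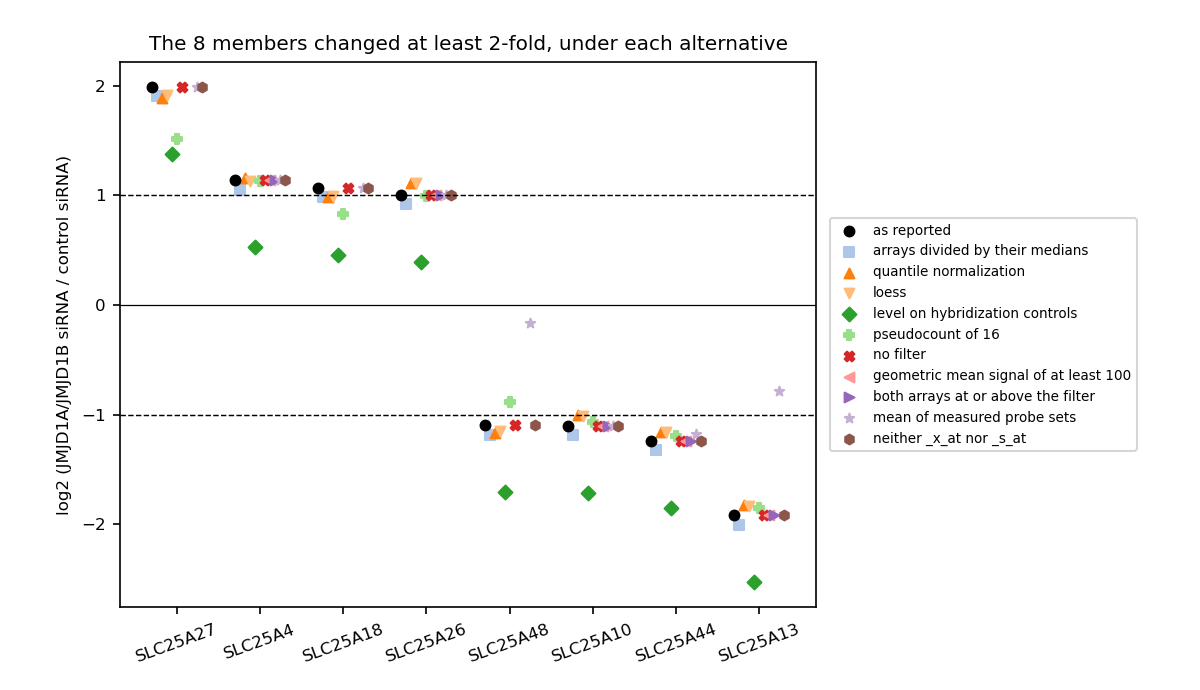
Log2 ratio (JMJD1A/JMJD1B siRNA over control siRNA) of the 8 members changed at least 2-fold, as reported (black) and under each alternative scaling, pseudocount, filter or probe-set rule, with dashed lines at 2-fold. SLC25A10 and SLC25A44 stay past 2-fold in all 10 alternatives and SLC25A27 in the 8 in which it was measured. SLC25A13 comes to -0.79 and SLC25A48 to -0.16 by the mean of probe sets, and none of the 8 members changes sign. The filters cannot change the ratio of a gene they keep. The probe-set rules cannot change that of SLC25A4, SLC25A10, SLC25A18, SLC25A26 or SLC25A27, each with a single measured probe set. The stricter filters drop SLC25A27, and its bound against the filter is 0.46 with the arrays level on the hybridization controls.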

How the data were processed

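Biotin-labelled material from 0.5 ug of total RNA was hybridized to 2 single-channel Affymetrix arrays, 1 per group, per the labels' protocols. The authors deposited a linear signal intensity per probe set, and MAS5 is the tool named in the submitters' processing notes. Its version and settings are not given in the sources used here. The deposited intensity values had a mean of 499.9 on both arrays after trimming 2% at each end. Of 54675 probe sets, 41091 carried 1 gene symbol in the platform annotation, 1801 several and 11721 none, and genes were named only from the first kind. No symbol changed on updating through RefSeq identifiers. The deposited intensities were taken to log2 with no pseudocount.

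With 1 array per group no test was run. Alternatives were 4 scalings, a pseudocount of 16, 3 filters, 2 probe-set rules, and thresholds of 1.5-fold and 3-fold. Every member was to be named, with those past 2-fold in full. From each related list the text takes the genes past 2-fold or else the largest ratio. Of the fixed sequence choices, protein sequences were not used here, and the start region of 1 changed member is not reported here. Members, lists and rules were chosen with earlier results of these data known. Calculations used Python 3.11.15, numpy 2.4.6, pandas 2.3.3 and statsmodels 0.14.6 (loess with a span of 0.3), and were tested on simulated data. With so few arrays, precision is limited throughout.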

Additional observations from a re-analysis of the deposited data

How the results depend on the processing

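No paired analysis was possible because each group held 1 array. The 4 higher and 4 lower members became 2 and 6 with the arrays divided by their medians (5.26% and 15.8%, beside 7.28% and 10.2% of all genes). Without _x_at and _s_at probe sets they became 4 and 6 (11.8% and 17.6%, beside 9.07% and 10.6%). With a pseudocount of 16 they became 2 and 3 (5.26% and 7.89%, beside 7.86% and 7.68%). The counts were also 2 and 3 with a geometric mean signal of at least 100 (6.25% and 9.38%, beside 8.28% and 8.59%). The same held with both arrays above the filter (5.71% and 8.57%, beside 7.95% and 8.03%). With the arrays level on the hybridization controls the members became 1 and 13 (2.63% and 34.2%, beside 2.15% and 27.7%). Their median was -0.83, beside -0.57 for all measured genes. The 1 higher member was SLC25A27, whose bound against the filter was only 0.46 there. All measured genes past 2-fold became 270 higher and 3483 lower there, against 1119 and 1072, and the higher share of the changed genes was 7.19%, against 51.1%. At 1.5-fold the members were 6 and 8 (15.8% and 21.1%) and all genes 2723 and 2452 (21.7% and 19.5%). At 3-fold the members were 1 and 1 (2.63% each) and all genes 287 and 284 (2.28% and 2.26%). Those 2 members were SLC25A27, at least 2.10-fold higher against the filter, and SLC25A13. With no filter, 3174 and 2504 genes passed 2-fold (16.1% and 12.7%), and 6 and 5 of the 45 members (13.3% and 11.1%). The cause of these moves was not tested beyond what each setting does by construction. No member past 2-fold changed sign under any alternative run. SLC25A4 missed 2-fold only with the arrays level on the hybridization controls (0.53), SLC25A13 by the mean of probe sets alone (-0.79) and SLC25A26, at 1.00, under 3 of 10 alternatives. SLC25A18 stayed past 2-fold under 3 of 8, none of which could change its ratio, and SLC25A48 under 6 of 8. The filters change no ratio of a gene they keep, and the probe-set rules none where a gene has a single measured probe set. The median of the members lay between -0.31 and -0.01 under the alternatives other than the hybridization controls. With 41.7% of changed genes higher, division by the medians moved the split of all genes below its 51.1%.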

Other observations

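Probe sets of transcripts that share a name with members, antisense genes and a pseudogene, were kept out of the family. SLC25A25-AS1 was the only one above the filter, at 102 on the JMJD1A/JMJD1B siRNA array and 125 on the control array (log2 ratio -0.29). Both SLC25A5-AS1 probe sets lay below the filter and in opposite directions, at 23.1 and 52.1 by the brighter and 21.4 and 3.30 by the dimmer, the JMJD1A/JMJD1B siRNA array being given before the control array. SLC25A29 and SLC25A47, neighbours on chromosome 14, had log2 ratios of 0.72 and 0.91, the second below the filter on both arrays.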
